A study of Mus musculus with 15 samples.

Results

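Interferon-stimulated genes are the genes that cells switch on when interferon reaches them. The 40 genes described here were chosen by name, and the row of each was taken from the deposited table by its symbol, with FPKM (fragments scaled for the length of the transcript and the sequencing depth) in 15 libraries. Of 23284 rows in the table, 39 were such genes. Ifi27 is not a row under that symbol and is given at the end under an older one. The libraries came from kidneys of wild-type mice and fall into 3 groups of 5, labelled D-ala, L-ala and Vehicle, all at 2 h. D-alanine and L-alanine are mirror-image forms of 1 amino acid. L-alanine is a building block of protein, and D-alanine is broken down by D-amino acid oxidase, a peroxisomal enzyme of the kidney. What D-alanine does to the kidney is the subject of the series. Doses, routes, the make-up of the vehicle, and the strain, sex and age of the mice are not stated in the labels. Where D-ala and L-ala differ, the mirror form and the dose cannot be told apart. Nothing in the labels ties each sample to its own animal, so p-values measure only the spread between samples, which may be technical.

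Type I interferons bind the receptor pair Ifnar1 and Ifnar2, and the kinases Jak1 and Tyk2 then start a signal that reaches the nucleus through Stat2 and Irf9. Irf9 and Stat2 are parts of a complex that binds interferon-stimulated response elements in promoters. Interferon gamma acts through another receptor and through gamma-activated sites, and Irf1 is among its early targets. Many of the induced proteins detect viral nucleic acid, block virus entry or translation, or prepare peptides for display on the cell surface. A tissue without infection keeps a low level of these transcripts, to which resident immune cells, vessel lining and epithelium all contribute.

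Recovered depth ran from 7.55 to 10.9 M reads per library. One library stood apart: over gene-centred values, L-ala replicate 5 correlated at -0.118 on average with the rest of the L-ala group, where each of the other libraries correlated at 0.0709 to 0.288 with its own group. The kidney label was checked against the summed level of 7 proximal tubule markers, which ran from 8017 to 9399 FPKM in D-ala kidneys, from 7944 to 8672 FPKM in L-ala kidneys and from 6706 to 7359 FPKM in vehicle kidneys. Markers of 3 other cell types were at or near 0. The sum of 2 markers of plasmacytoid dendritic cells, the main producers of interferon alpha, did not pass 0.144 FPKM in any library. The sums of 4 B cell markers and of 8 T and NK cell markers did not pass 1.91 and 3.80 FPKM. Of the 39 genes, 33 reached 1 FPKM in at least 5 libraries and were tested among 11781 genes with limma on log2(FPKM + 1). All fold changes below use log2(FPKM + 1) and so come out too small for low genes. Genes are called where the p of limma, adjusted by Benjamini-Hochberg over all genes tested, is under 0.05.

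Promoters of genes whose levels are described below are printed first, because interferon can act through response elements and gamma-activated sites. The sequences are those of RefSeq on GRCm38.p6, from 250 bases before to 50 bases after the start of the gene, read 5′ to 3′ on the gene's strand. Isg15, Ifit1 and Rsad2 fell under D-ala, Irf1 rose under L-ala, and Ddx58 and Eif2ak2 were higher for D-ala against L-ala. Capitals mark matches to the core of the response element, GAAANNGAAA or TTTCNNTTTC on the other strand with N any base, in Isg15, Ifit1, Rsad2 and Ddx58. In Irf1 they mark the gamma-activated site TTCNNNGAA, which reads the same on both strands, and in Eif2ak2 the first run in capitals is that site and the second is the core. They lie at chr4:156200769-156201068 (Isg15, minus strand), chr19:34640639-34640938 (Ifit1, plus), chr12:26456403-26456702 (Rsad2, minus), chr11:53769764-53770063 (Irf1, plus, the first of 2 entries), chr4:40239776-40240075 (Ddx58, minus) and chr17:78882523-78882822 (Eif2ak2, minus).
Isg15: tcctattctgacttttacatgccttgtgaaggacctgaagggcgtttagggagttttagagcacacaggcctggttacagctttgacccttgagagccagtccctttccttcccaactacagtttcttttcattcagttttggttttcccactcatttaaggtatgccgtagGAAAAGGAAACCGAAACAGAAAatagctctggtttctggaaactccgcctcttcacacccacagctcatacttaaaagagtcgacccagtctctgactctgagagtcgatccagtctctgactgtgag
Ifit1: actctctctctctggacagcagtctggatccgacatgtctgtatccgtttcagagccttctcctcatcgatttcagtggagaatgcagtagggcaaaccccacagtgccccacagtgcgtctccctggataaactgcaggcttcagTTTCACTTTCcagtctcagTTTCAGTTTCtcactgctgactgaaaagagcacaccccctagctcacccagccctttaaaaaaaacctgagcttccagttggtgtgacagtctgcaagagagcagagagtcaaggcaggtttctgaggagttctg
Rsad2: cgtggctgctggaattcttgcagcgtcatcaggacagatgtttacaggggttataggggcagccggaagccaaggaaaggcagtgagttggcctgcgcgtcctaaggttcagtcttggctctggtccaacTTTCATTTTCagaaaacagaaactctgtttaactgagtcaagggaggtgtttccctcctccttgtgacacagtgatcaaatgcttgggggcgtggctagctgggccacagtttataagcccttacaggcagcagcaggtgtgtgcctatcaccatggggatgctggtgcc
Irf1: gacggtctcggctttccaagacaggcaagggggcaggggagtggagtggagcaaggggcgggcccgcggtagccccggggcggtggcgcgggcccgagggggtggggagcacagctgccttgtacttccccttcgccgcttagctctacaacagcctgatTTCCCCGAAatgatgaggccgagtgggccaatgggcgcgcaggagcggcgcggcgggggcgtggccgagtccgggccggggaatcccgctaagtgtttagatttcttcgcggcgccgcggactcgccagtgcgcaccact
Ddx58: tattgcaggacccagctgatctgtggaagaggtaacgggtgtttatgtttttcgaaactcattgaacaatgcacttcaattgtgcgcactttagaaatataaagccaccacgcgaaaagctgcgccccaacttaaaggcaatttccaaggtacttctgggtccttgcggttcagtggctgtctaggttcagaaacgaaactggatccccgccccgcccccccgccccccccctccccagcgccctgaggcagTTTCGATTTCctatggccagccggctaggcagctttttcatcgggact
Eif2ak2: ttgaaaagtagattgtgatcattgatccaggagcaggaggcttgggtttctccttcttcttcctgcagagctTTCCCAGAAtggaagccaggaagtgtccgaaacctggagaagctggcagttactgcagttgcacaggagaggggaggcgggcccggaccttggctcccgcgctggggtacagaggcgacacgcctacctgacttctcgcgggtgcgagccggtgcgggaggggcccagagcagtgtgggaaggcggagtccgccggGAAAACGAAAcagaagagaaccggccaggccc

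Isg15 holds 3 overlapping copies of the core in 1 run, and Ifit1 holds 2 separate copies. In Rsad2 the copy begins at base -120 from the start. The gamma-activated site of Irf1 begins at -90. In Ddx58 and Eif2ak2 the copy begins after the start, at bases 2 and 18. Of the 39 genes, 30 had an entry, with 33 promoters in all. The core was in 12 of these 33 promoters (36.4%), against 3.44% of all 32851 promoters of the same length. The gamma-activated site was in 8 of the 33 (24.2%), against 8.30% of all promoters. Of the 10 genes with an entry that fell under D-ala against vehicle, 6 held the core, and of the 4 that fell under L-ala against vehicle, 0 did. Of all 30 genes with an entry, 12 held it (40%). Ifit2 and Ifitm1 are in both sets, and the sets are too small to be compared. The Ifitm1 window begins at 140967826, inside the gene, which begins at 140967221 in GENCODE. A match is a run of letters and not a bound site.

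Some of the interferon-stimulated genes, several antiviral effectors among them, were lower in D-ala kidneys. Against vehicle, 11 of the 33 tested genes fell, 0 rose and 22 were not called, where 4.92% of all tested genes were called lower and 6.53% higher. The genes that fell were Ifit1, Ifit2, Ifit3, Ifitm1, Ifitm3, Rsad2, Bst2, Isg15, Psmb8, Ifi44 and Rtp4. The median log2 fold change of the 33 was -0.21, beside 0.0011 for all genes tested, and 29 of the 33 were below 0, beside 49.6% of all genes. In 6 of them every D-ala library lay below every vehicle library, where 4.76% of all genes did so, and in 0 every D-ala library lay above, where 6.12% of all genes did so. Only 6 of the 33 fell when vehicle replicate 1, 4 or 5 or D-ala replicate 1 was left out, and 7 when D-ala replicate 2 was. Without the 3 libraries of lowest depth, a setting chosen after seeing the data, 6 fell, and Ifit3 (adjusted p = 0.0767), Ifitm3 (0.069), Rsad2 (0.0782), Bst2 (0.0675) and Psmb8 (0.08) were not called. Vehicle replicate 1, which also has the lowest depth, held the highest value of the 15 libraries for 14 of the 33 genes. D-ala replicates 1 and 2 held the lowest for 8 and 6. In bulk tissue, fewer cells of a type and less RNA per cell cannot be told apart.

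**Figure D1:**
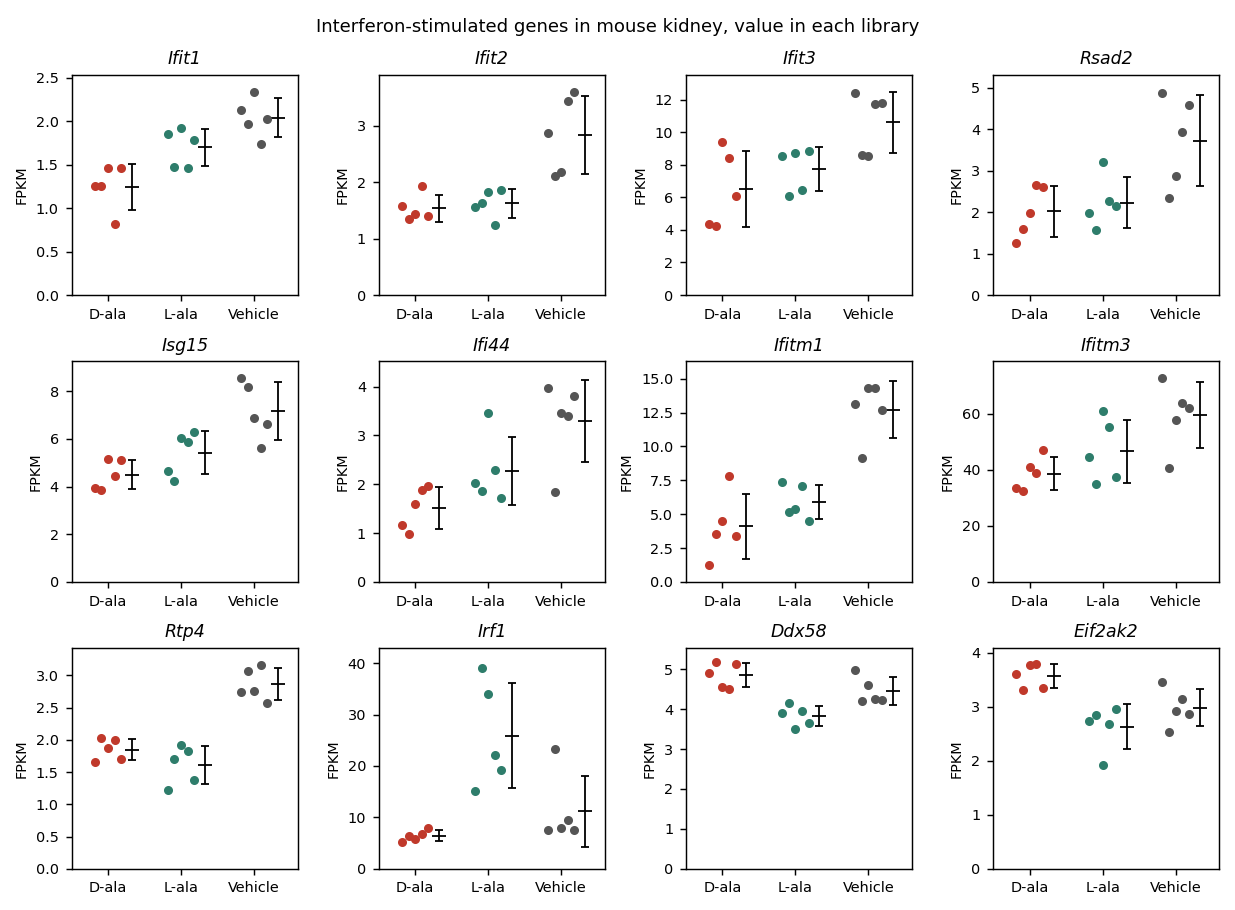
FPKM of 12 interferon-stimulated genes in each library (vertical axes, starting at 0) by group, in the order D-ala, L-ala and Vehicle. Points are libraries, and the bar beside each group is the mean with the SD of its 5 libraries. In Ifit1, Ifit2, Isg15, Ifitm1 and Rtp4 all D-ala points lie below all vehicle points, while the L-ala points of Irf1 reach 39.1 FPKM.

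All 3 Ifit genes fell under D-ala. Their proteins bind viral RNA and the translation machinery, and the genes lie in 1 cluster on chromosome 19. Ifit1 (GRCm38 chromosome 19, 34640871 to 34650009, plus strand) had 1.25, 1.25, 1.46, 0.813 and 1.46 FPKM in D-ala kidneys, 1.85, 1.48, 1.92, 1.47 and 1.78 FPKM in L-ala kidneys, and 2.13, 1.96, 2.34, 1.74 and 2.03 FPKM in vehicle kidneys. Every D-ala library lay below every library of both other groups, and the L-ala and vehicle libraries overlapped. The log2 fold change was -0.44 for D-ala against vehicle (SE 0.09, adjusted p = 0.006) and -0.17 for L-ala against vehicle (SE 0.09, adjusted p = 0.214). Ifit2 (chromosome 19, 34550694 to 34576419) had 1.57, 1.35, 1.44, 1.94 and 1.39 FPKM in D-ala kidneys, 1.56, 1.63, 1.82, 1.24 and 1.87 FPKM in L-ala kidneys, and 2.87, 2.12, 2.18, 3.44 and 3.60 FPKM in vehicle kidneys. Both alanine groups lay wholly below vehicle and overlapped each other. Ifit2 fell under D-ala (-0.58, SE 0.11, adjusted p = 0.00406) and under L-ala (-0.54, SE 0.11, adjusted p = 0.0125). Ifit3 (chromosome 19, 34583531 to 34588731) averaged 6.50 ± 2.35 FPKM in D-ala kidneys, 7.72 ± 1.35 FPKM in L-ala kidneys and 10.6 ± 1.88 FPKM in vehicle kidneys (SD, n = 5 each). It fell under D-ala (-0.67, SE 0.19, adjusted p = 0.0304), with overlap. Its call was lost without vehicle replicate 1 (limma, adjusted p = 0.0664), 4 (0.0763) or 5 (0.0639) and without D-ala replicate 1 (0.0757), 2 (0.0717) or 5 (0.0568). With only the D-ala and vehicle libraries in the model its adjusted p was 0.0548 (limma). Ifit3 has a near-identical neighbour in the table, so its reads could have been divided between them.

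Among the Ifitm genes, whose small membrane proteins hinder fusion of viruses with the cell, Ifitm1 and Ifitm3 fell under D-ala. Ifitm1 (chromosome 7, 140967221 to 140969825, plus strand) had 1.25, 3.55, 4.48, 7.84 and 3.38 FPKM in D-ala kidneys, 7.34, 5.17, 5.41, 7.11 and 4.502 FPKM in L-ala kidneys, and 13.1, 9.18, 14.3, 14.3 and 12.7 FPKM in vehicle kidneys. Both alanine groups lay wholly below vehicle, and the highest D-ala library was above every L-ala library. The fold change of D-ala against vehicle was the largest of the 33 genes, at -1.54 (SE 0.27, adjusted p = 0.00236). Under L-ala it was -0.99 (SE 0.27, adjusted p = 0.0332). The L-ala call was lost without vehicle replicate 1 (limma, adjusted p = 0.0583), 3 (0.0574) or 4 (0.0872) or L-ala replicate 2 (0.0559), 3 (0.0668) or 4 (0.0602). Ifitm3 (chromosome 7, 141009586 to 141010770, minus strand) had 33.6, 32.5, 40.8, 38.9 and 47.001 FPKM in D-ala kidneys, 44.5, 35.01, 61.1, 55.1 and 37.3 FPKM in L-ala kidneys, and 72.9, 40.8, 57.7, 63.7 and 62.0 FPKM in vehicle kidneys. Vehicle replicate 2 was the lowest of its group, within the range of the D-ala libraries. Ifitm3 fell under D-ala (-0.60, SE 0.17, adjusted p = 0.0318) and was at -0.35 under L-ala (adjusted p = 0.168). The D-ala call was lost without vehicle replicate 1 (limma, adjusted p = 0.0714), 3 (0.0551), 4 (0.078) or 5 (0.0612) and without D-ala replicate 1 (0.0748) or 2 (0.0744). Ifitm2, the most abundant of the 33 genes, averaged 97.6 ± 3.52 FPKM in D-ala kidneys, 108 ± 15.9 FPKM in L-ala kidneys and 105 ± 15.8 FPKM in vehicle kidneys (SD, n = 5 each). Its change under D-ala was -0.10 (95% interval -0.31 to 0.12, adjusted p = 0.606).

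Isg15, the ubiquitin-like protein that is attached to other proteins after interferon (chromosome 4, 156199424 to 156200818, minus strand), had 3.93, 3.87, 5.16, 4.46 and 5.10 FPKM in D-ala kidneys, 4.67, 4.24, 6.04, 5.86 and 6.27 FPKM in L-ala kidneys, and 8.58, 8.19, 6.86, 5.63 and 6.61 FPKM in vehicle kidneys. No D-ala library reached the lowest vehicle library, and 3 L-ala libraries did. The change was -0.56 for D-ala against vehicle (SE 0.12, adjusted p = 0.00522) and -0.35 for L-ala against vehicle (SE 0.12, adjusted p = 0.0607). The L-ala change was called without L-ala replicate 5 (adjusted p = 0.0286). The 3 tested partners of Isg15 were not called in either comparison. Under D-ala, Usp18, the protease that removes Isg15 and restrains the receptor, was at -0.11, Herc6, its main ligase in mice, at -0.13, and Trim25, a ligase that activates the RNA sensor Ddx58, at 0.12 on the log2 scale. Herc6 was at -0.29 under L-ala (adjusted p = 0.0507) and was called without vehicle replicate 2 (limma, adjusted p = 0.0376) or L-ala replicate 5 (0.0116).

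Of 3 other direct effectors, Rsad2 and Bst2 fell under D-ala and Cmpk2 was not called. Rsad2 (viperin), which makes a nucleotide that stops viral polymerases, averaged 2.02 ± 0.613 FPKM in D-ala kidneys, 2.23 ± 0.608 FPKM in L-ala kidneys and 3.73 ± 1.09 FPKM in vehicle kidneys (SD, n = 5 each). It fell under D-ala (-0.64, SE 0.17, adjusted p = 0.0267), and the L-ala estimate was -0.54 (adjusted p = 0.0561). The D-ala call of Rsad2 was lost without vehicle replicate 1 (limma, adjusted p = 0.0637), 4 (0.066) or 5 (0.0626) and without D-ala replicate 1 (0.0702) or 2 (0.0626). Its L-ala estimate was called without vehicle replicate 2 (0.0362) or L-ala replicate 3 (0.0418). Cmpk2, a mitochondrial nucleotide kinase and the neighbour of Rsad2 on chromosome 12, was at -0.18 under D-ala (adjusted p = 0.249). Bst2 (tetherin), which holds budding virus at the cell surface, averaged 17.9 ± 2.88 FPKM in D-ala kidneys, 22.7 ± 3.92 FPKM in L-ala kidneys and 24.4 ± 3.02 FPKM in vehicle kidneys. Its D-ala libraries, between 14.034 and 21.034 FPKM, lay just below its vehicle libraries, between 21.038 and 29.025 FPKM, and it fell (-0.43, SE 0.12, adjusted p = 0.032). That call was lost without vehicle replicate 1 (limma, adjusted p = 0.0633), 3 (0.051), 4 (0.0551) or 5 (0.0754) and without D-ala replicate 1 (0.0813) or 2 (0.0738).

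Rtp4, a chaperone that carries receptors to the cell surface (chromosome 16, 23520291 to 23614222, plus strand), had the smallest adjusted p of the 33 genes under L-ala. It had 1.65, 2.03, 1.87, 2.00 and 1.71 FPKM in D-ala kidneys, 1.23, 1.70, 1.93, 1.83 and 1.38 FPKM in L-ala kidneys, and 2.74, 3.08, 2.75, 3.16 and 2.58 FPKM in vehicle kidneys. All libraries of both alanine groups lay below all vehicle libraries. Rtp4 fell by 0.57 on the log2 scale under L-ala (SE 0.08, adjusted p = 0.00229) and by 0.44 under D-ala (SE 0.08, adjusted p = 0.00356). The gene overlaps Masp1 on the other strand, and the use of strand in counting is not stated. Ifi44, a cytoplasmic antiviral protein (chromosome 3, 151730922 to 151749960, minus strand), had 1.16, 0.990, 1.59, 1.88 and 1.97 FPKM in D-ala kidneys, 2.02, 1.86, 3.46, 2.29 and 1.73 FPKM in L-ala kidneys, and 3.97, 1.84, 3.46, 3.39 and 3.80 FPKM in vehicle kidneys. Vehicle replicate 2 lay among the D-ala libraries and the other 4 vehicle libraries above them. Ifi44 fell under D-ala (-0.76, SE 0.16, adjusted p = 0.00748) and was at -0.39 under L-ala (adjusted p = 0.125), where it was called without vehicle replicate 2 (limma, adjusted p = 0.0429). Ifi35, Xaf1 and Lgals3bp, the remaining 3 of this group, were at -0.21, -0.11 and -0.07 under D-ala and were not called. Ifi35 was called without D-ala replicate 3 (adjusted p = 0.0407).

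**Figure D2:**
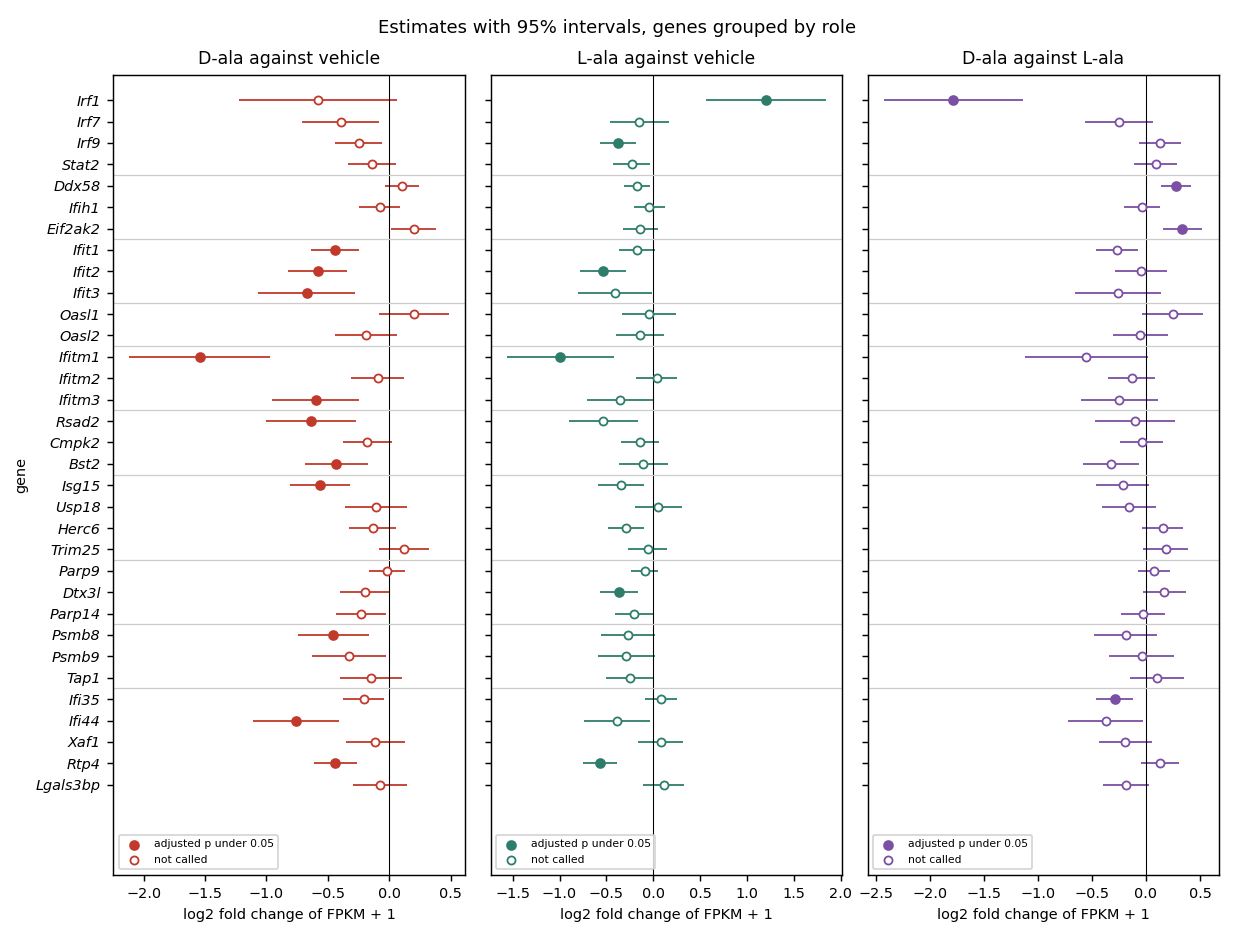
Log2 fold change of FPKM + 1 (horizontal axes) with its 95% interval for the 33 tested genes (vertical axis), grouped by role from the transcription factors at the top, in 3 comparisons. Filled points have an adjusted p under 0.05. In the D-ala against vehicle panel the 11 filled points all lie left of 0, and in the L-ala against vehicle panel Irf1 is filled at 1.20.

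All 4 transcription factors of the pathway were below 0 for D-ala against vehicle, with a median of -0.32, and 0 were called. Under L-ala they were split, with 1 called higher, 1 called lower and 2 not called. Irf1, induced early by interferon gamma and by NF-kB (chromosome 11, 53770014 to 53778374, plus strand), had 5.25, 6.46, 5.72, 6.82 and 7.96 FPKM in D-ala kidneys, 15.2, 39.1, 33.98, 22.1 and 19.2 FPKM in L-ala kidneys, and 7.47, 23.3, 7.93, 9.54 and 7.45 FPKM in vehicle kidneys. All L-ala libraries lay above all D-ala libraries, and above every vehicle library except vehicle replicate 2. Irf1 rose under L-ala against vehicle (1.20, SE 0.30, adjusted p = 0.026) and was at -0.58 under D-ala (SE 0.30, adjusted p = 0.237). The L-ala call was lost without vehicle replicate 1 (limma, adjusted p = 0.0538) or 4 (0.07) or L-ala replicate 3 (0.0584) or 4 (0.057). It was also lost with only the L-ala and vehicle libraries in the model (0.0783), and the estimate stayed between 1.04 and 1.49 over 24 alternatives. D-ala against L-ala gave -1.78 for Irf1 (SE 0.30, adjusted p = 0.00325), called under all 24 alternatives. Markers of neutrophils and of red blood cells were also high in the L-ala group. The sum of 6 neutrophil markers ran from 2.42 to 11.3 FPKM in D-ala kidneys, from 13.1 to 35.1 FPKM in L-ala kidneys and from 0.676 to 7.81 FPKM in vehicle kidneys. Both tested markers of the list, S100a8 and S100a9, rose under L-ala (log2 fold changes of 2.03, adjusted p = 0.0231, and 1.802, adjusted p = 0.0205). In vehicle replicates 1 to 5 the neutrophil sum was 3.23, 6.36, 5.33, 7.81 and 0.676 FPKM, and replicate 2 had the highest Irf1 of that group. The sum of 6 red blood cell markers ran from 81.4 to 1129 FPKM in D-ala kidneys, from 594.8 to 1702 FPKM in L-ala kidneys and from 40.1 to 620.9 FPKM in vehicle kidneys. All 5 tested red blood cell markers were above 0 for L-ala against vehicle, with a median of 2.195, and 0 were called. Of these, Hba-a1, a haemoglobin chain, lay wholly above vehicle (2.50, adjusted p = 0.0663), where 4.01% of all tested genes did so. For D-ala against L-ala 1 of the 5 was called, Hbb-b1 (-2.88, adjusted p = 0.038), a haemoglobin chain whose reads could be divided with near copies. The part of these cells in the result was not tested.

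Irf9, the DNA-binding part of the complex that recognises the response element (chromosome 14, 55603571 to 55610030, plus strand), went the other way under L-ala. It had 4.86, 6.47, 5.17, 4.41 and 5.50 FPKM in D-ala kidneys, 4.63, 3.81, 5.57, 5.07 and 4.62 FPKM in L-ala kidneys, and 6.72, 6.53, 6.53, 5.82 and 6.55 FPKM in vehicle kidneys. Irf9 overlaps Rnf31 on the same strand, so their reads may not be separable. Every L-ala library lay below every vehicle library, while D-ala replicate 2 overlapped vehicle. Irf9 fell under L-ala (-0.38, SE 0.09, adjusted p = 0.0196) and was at -0.25 under D-ala (SE 0.09, adjusted p = 0.0847), called there without D-ala replicate 2 (adjusted p = 0.0335). Stat2, its partner, had 2.57, 2.93, 2.98, 2.56 and 3.54 FPKM in D-ala kidneys, 2.76, 2.38, 3.05, 2.27 and 2.94 FPKM in L-ala kidneys, and 3.86, 3.67, 2.89, 2.82 and 3.34 FPKM in vehicle kidneys. The 3 groups of Stat2 overlapped, and its changes were -0.14 under D-ala (adjusted p = 0.365) and -0.23 under L-ala (adjusted p = 0.109). Irf7, which drives production of interferon alpha, had 5.15, 5.63, 4.82, 5.06 and 5.21 FPKM in D-ala kidneys, 6.52, 4.36, 6.07, 5.66 and 10.1 FPKM in L-ala kidneys, and 8.25, 5.58, 6.53, 6.88 and 8.70 FPKM in vehicle kidneys. Its D-ala libraries were tightly grouped at or below the low end of vehicle, and the highest value was that of L-ala replicate 5, the library that stood apart. Irf7 was at -0.39 under D-ala (SE 0.15, adjusted p = 0.0936), called without L-ala replicate 5 (adjusted p = 0.0227), and at -0.15 under L-ala (adjusted p = 0.522).

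For L-ala against vehicle, 1 of the 33 rose (Irf1), 5 fell (Irf9, Ifit2, Ifitm1, Dtx3l and Rtp4) and 27 were not called, where 6.48% of all tested genes were called higher and 4.53% lower. The median was -0.17, beside 0.007 for all genes tested, and 27 of the 33 were below 0, beside 48.5% of all genes. In 6 genes every L-ala library lay below every vehicle library, where 3.23% of all genes did so, and in 0 every L-ala library lay above, where 4.01% of all genes did so. The 6 were Ddx58, Dtx3l, Ifit2, Ifitm1, Irf9 and Rtp4. The number called, in either direction, was 3 without vehicle replicate 4 or L-ala replicate 4. Without L-ala replicate 5 or vehicle replicate 2 it was 8, of which 7 fell. After quantile normalization Irf9 (adjusted p = 0.0572), Ifitm1 (0.05) and Dtx3l (0.0706) were not called, and Ifitm1 was not called with a pseudocount of 0.1 (0.053). Without the 3 libraries of lowest depth, the calls of Irf9 (0.0556), Ifitm1 (0.115), Dtx3l (0.0599) and Irf1 (0.0687) were lost. Dtx3l, a ubiquitin ligase that works in a complex with Parp9, averaged 1.47 ± 0.243 FPKM in D-ala kidneys, 1.19 ± 0.207 FPKM in L-ala kidneys and 1.83 ± 0.296 FPKM in vehicle kidneys (SD, n = 5 each). It fell under L-ala (-0.37, SE 0.09, adjusted p = 0.0258). The call was lost without vehicle replicate 2 (limma, adjusted p = 0.0548) or 4 (0.0797) or L-ala replicate 1 (0.0563), 3 (0.052) or 4 (0.0725). Dtx3l overlaps Parp9 on the other strand, so their reads may not be separable, and Parp9 itself was at -0.09 under L-ala and -0.02 under D-ala. Parp14, a related enzyme on the same chromosome, was at -0.20 and -0.23 in the same comparisons and was not called.

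Because D-ala and L-ala were set against the same vehicle libraries, their fold changes share those values, and the direct comparison is the test of a difference. For D-ala against L-ala, 2 of the 33 genes were called higher (Ddx58 and Eif2ak2), 2 lower (Irf1 and Ifi35) and 29 neither, where 7.01% of all tested genes were called higher and 6.66% lower. These counts, 6.06% of the 33 in each direction, are near those shares. The median was -0.05, beside -0.009 for all genes tested, and 22 of the 33 were below 0, beside 52% of all genes. Groups did not overlap for 2 genes that were lower and 2 that were higher under D-ala, where 4.02% and 5.08% of all genes did so. Ddx58 (RIG-I), a sensor of viral RNA (chromosome 4, 40203773 to 40239828, minus strand), had 4.90, 5.18, 4.56, 4.51 and 5.13 FPKM in D-ala kidneys, 3.89, 4.15, 3.50, 3.96 and 3.65 FPKM in L-ala kidneys, and 4.99, 4.19, 4.61, 4.26 and 4.23 FPKM in vehicle kidneys. The lowest D-ala library was above the highest L-ala library, and every vehicle library was also above every L-ala library. Ddx58 was higher in D-ala than in L-ala kidneys (0.28, SE 0.06, adjusted p = 0.0134), was at 0.10 for D-ala against vehicle (adjusted p = 0.328) and at -0.17 for L-ala against vehicle (adjusted p = 0.0835).

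Eif2ak2 (PKR), a kinase that halts translation when it binds double-stranded RNA (chromosome 17, 78852564 to 78882573, minus strand), had 3.61, 3.31, 3.76, 3.79 and 3.35 FPKM in D-ala kidneys, 2.74, 2.85, 1.92, 2.68 and 2.96 FPKM in L-ala kidneys, and 3.45, 2.53, 2.92, 3.14 and 2.86 FPKM in vehicle kidneys. All D-ala libraries lay above all L-ala libraries, and both groups overlapped vehicle. Eif2ak2 was higher in D-ala than in L-ala kidneys (0.34, SE 0.09, adjusted p = 0.0202), at 0.20 for D-ala against vehicle (adjusted p = 0.148) and at -0.14 for L-ala against vehicle (adjusted p = 0.294). Ifi35, a cytoplasmic protein that associates with other interferon-induced proteins, averaged 12.3 ± 1.41 FPKM in D-ala kidneys, 15.2 ± 1.61 FPKM in L-ala kidneys and 14.3 ± 0.763 FPKM in vehicle kidneys (SD, n = 5 each). It was lower in D-ala than in L-ala kidneys (-0.29, SE 0.08, adjusted p = 0.0267). The call was lost without L-ala replicate 1 (limma, adjusted p = 0.0671), 3 (0.0586) or 4 (0.0723) and without D-ala replicate 1 (0.0699) or 4 (0.0608), and with only the D-ala and L-ala libraries in the model (0.0618). Ifih1 (MDA5), a second RNA sensor, was at -0.04 for D-ala against L-ala (95% interval -0.20 to 0.13).

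For the genes that fell under D-ala, the direct comparison with L-ala left wide intervals, and none of them was called. It gave -0.27 for Ifit1 (95% interval -0.47 to -0.07, adjusted p = 0.0623) and -0.05 for Ifit2 (-0.29 to 0.20, adjusted p = 0.816). For Isg15 it gave -0.22 (-0.46 to 0.03, adjusted p = 0.214) and for Rtp4 0.13 (-0.05 to 0.31, adjusted p = 0.304). Ifitm1 was at -0.55 (-1.12 to 0.02, adjusted p = 0.176) and was called without D-ala replicate 4 (adjusted p = 0.0389). Bst2 was at -0.33 (-0.58 to -0.07, adjusted p = 0.0839) and was called without L-ala replicate 2 (adjusted p = 0.041). Ifi44 was at -0.37 (-0.72 to -0.02, adjusted p = 0.136). Ifit3 was at -0.26, Ifitm3 at -0.25, Psmb8 at -0.19 and Rsad2 at -0.10. Ifit1 was called after quantile normalization (limma, adjusted p = 0.0407) and with variances neither trended nor robust (0.0491). These values do not show that the isomers act alike on the genes that were not called.

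**Figure D3:**
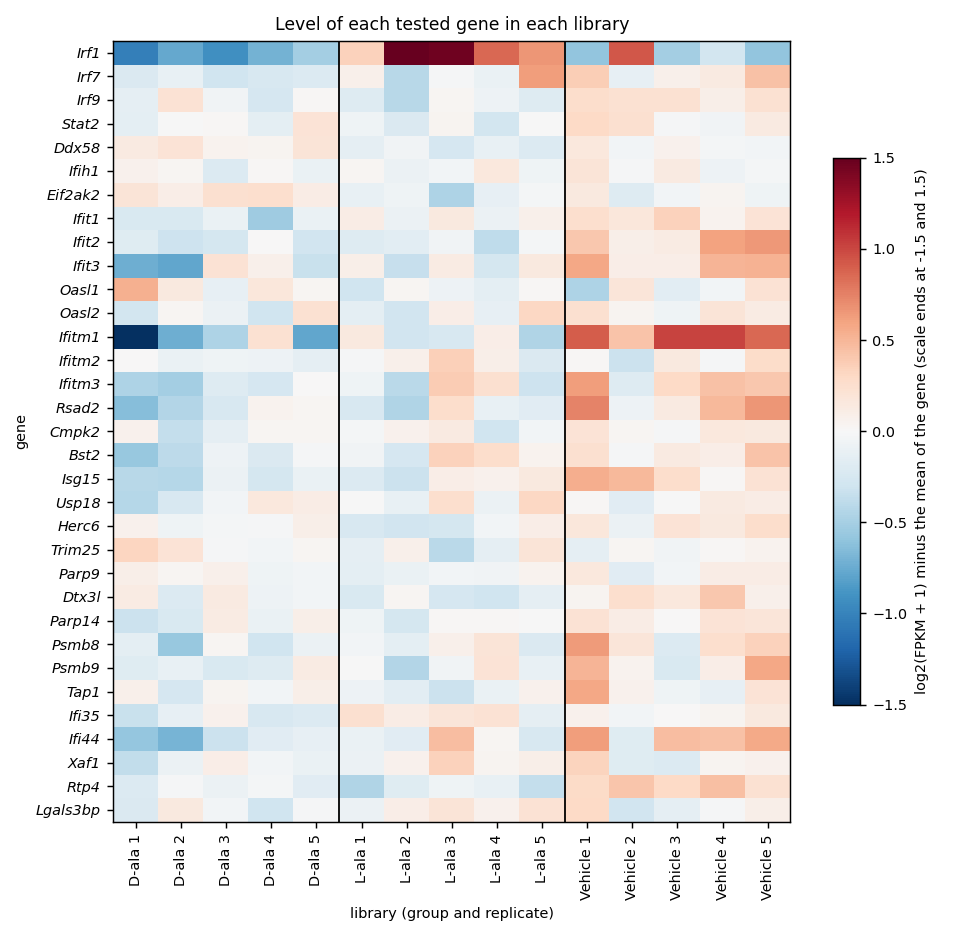
Level of the 33 tested genes (rows) in the 15 libraries (columns, D-ala, L-ala and Vehicle from left to right), as log2(FPKM + 1) minus the mean of the gene; red is above and blue below that mean, and colours end at -1.5 and 1.5. The row of Ifitm1 is blue in 4 of the 5 D-ala libraries and red in all vehicle libraries, and the row of Irf1 is red in all L-ala libraries and in vehicle replicate 2.

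Antigen-processing genes lie side by side on chromosome 17. Psmb8, a catalytic subunit of the immunoproteasome (34197721 to 34201454), averaged 7.42 ± 1.28 FPKM in D-ala kidneys, 8.55 ± 1.11 FPKM in L-ala kidneys and 10.6 ± 2.38 FPKM in vehicle kidneys (SD, n = 5 each). It fell under D-ala (-0.46, SE 0.14, adjusted p = 0.0399). The call was lost without vehicle replicate 1 (limma, adjusted p = 0.0913), 2 (0.0586), 4 (0.0829) or 5 (0.0796), without L-ala replicate 1 (0.0513) and without D-ala replicate 1 (0.0642), 2 (0.0981), 4 (0.0736) or 5 (0.0516). It was also lost with no filter on low values (0.0627) and with only the D-ala and vehicle libraries in the model (0.061), and the call of Bst2 was lost with no filter (0.0516). Its partner subunit Psmb9 was at -0.33 under D-ala (adjusted p = 0.151), and Tap1, which moves peptides into the endoplasmic reticulum, at -0.15 (adjusted p = 0.465). Psmb9 and Tap1 overlap on opposite strands. Under L-ala the 3 genes were between -0.29 and -0.25, and none was called.

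Levels of the 33 genes spanned from 1.06 FPKM (Xaf1, a proapoptotic protein) to 103.6 FPKM (Ifitm2) as means over 15 libraries. Ifitm3 followed at 48.2 FPKM, then Bst2 at 21.6 FPKM and Lgals3bp, a secreted galectin ligand, at 18.9 FPKM. These 4 held ranks 1 to 4 in D-ala and in vehicle kidneys, while in L-ala kidneys Irf1 held rank 3, before Bst2. Irf1 held rank 9 in D-ala kidneys and rank 8 in vehicle kidneys. The spread of neighbours in this order overlapped for Bst2 and Lgals3bp, whose vehicle means were 24.4 ± 3.02 and 18.8 ± 3.04 FPKM. The Oas-like genes were low. Oasl1, which in mice restrains translation of Irf7, was at 0.20 for D-ala against vehicle (adjusted p = 0.365), and Oasl2 at -0.19 (adjusted p = 0.339). The 6 genes below the filter were not tested. Mx1 and Mx2, GTPases that trap viral capsids, did not pass 0.319 and 0.561 FPKM in any library. Oas2, an enzyme that makes the activator of RNase L, did not pass 0.455 FPKM, and Oas1a, of the same family, ran from 0.388 to 1.08 FPKM. Dhx58, a regulator of RNA sensing, ran from 0.176 to 0.845 FPKM and Zbp1, a sensor of left-handed nucleic acid, from 0.264 to 1.52 FPKM. None of the 6 was at 0 in any library. RefSeq lists Ifi27l1 as an older symbol of Ifi27, and that row averaged 44.6 ± 4.71 FPKM in D-ala kidneys, 58.8 ± 9.18 FPKM in L-ala kidneys and 51.6 ± 5.39 FPKM in vehicle kidneys (SD, n = 5 each). It was lower in D-ala than in L-ala kidneys (-0.38, adjusted p = 0.0267) and was not called against vehicle in either group (-0.21, adjusted p = 0.229 for D-ala and 0.18, adjusted p = 0.261 for L-ala). It is left out of the counts above.

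Genes around the 39 were taken from lists of the same pathway. Of 16 type I and III interferon genes, 14 were at 0 FPKM in every library, Ifnb1 among them, and 0 were tested. Ifng, the gene of interferon gamma, did not pass 0.176 FPKM in any library and was not tested. Of 9 tested receptors and kinases, 0 were called in any of the 3 comparisons. Ifnar1 averaged 6.14 ± 0.451 FPKM in D-ala kidneys, 5.56 ± 0.396 FPKM in L-ala kidneys and 6.20 ± 0.657 FPKM in vehicle kidneys (SD, n = 5 each). Ifnar2 was at 0.01 for D-ala against vehicle (adjusted p = 0.927) and 0.21 for L-ala against vehicle (adjusted p = 0.0542), and Ifngr1 at -0.05 (adjusted p = 0.733) and -0.13 (adjusted p = 0.302) in the same comparisons. The list of brakes of the response also holds Isg20, an induced effector rather than a brake. Of 10 tested upstream sensors and adaptors, 1 was called, and of 7 tested genes on the list of brakes, 1 was called. Both were called for D-ala against L-ala, where 13.7% of all tested genes were called. Such counts are near that share. The genes were Myd88, the adaptor of Toll-like receptors (0.36, adjusted p = 0.0135), and Trim24, a repressor of interferon target genes in mouse liver (0.26, adjusted p = 0.0484).

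The GTPases induced by interferon gamma attack the vacuoles of intracellular pathogens. Of 8 tested, 4 fell and 0 rose under D-ala, 3 fell and 0 rose under L-ala, and 0 were called between D-ala and L-ala. Over all tested genes, 4.92% were called lower under D-ala and 4.53% under L-ala. All 8 were below 0 in each comparison with vehicle, with medians of -0.44 for D-ala and -0.41 for L-ala. Gbp2 averaged 2.67 ± 0.721 FPKM in D-ala kidneys, 3.11 ± 0.364 FPKM in L-ala kidneys and 4.80 ± 0.579 FPKM in vehicle kidneys (SD, n = 5 each). It fell under D-ala (-0.68, adjusted p = 0.00156) and under L-ala (-0.50, adjusted p = 0.0186), with no overlap with vehicle in either. Gbp7 fell as well (-0.54, adjusted p = 0.00721 under D-ala and -0.63, adjusted p = 0.00666 under L-ala), and Irgm2 fell under L-ala (-0.58, adjusted p = 0.0298). Of 24 further interferon-stimulated genes tested, 6 fell and 0 rose under D-ala, 4 fell and 0 rose under L-ala, and 2 were higher and 1 lower for D-ala against L-ala. The 3 called in that last comparison are near the 13.7% called over all genes. Trim21, an antibody receptor of the cytosol, fell in both groups against vehicle (-0.43, adjusted p = 0.0046 under D-ala and -0.58, adjusted p = 0.00231 under L-ala). Lgals9, a galectin, fell likewise (-0.60, adjusted p = 0.00714 under D-ala and -0.46, adjusted p = 0.0343 under L-ala). Slfn2, a regulator of T cell quiescence, fell under D-ala (-0.52, adjusted p = 0.0174). Of 7 tested partners in antigen processing, 0 were called under D-ala against vehicle. Only B2m was called between the alanine groups, lower in D-ala than in L-ala kidneys (-0.35, adjusted p = 0.0394). Only Erap1, a peptide trimmer, was called under L-ala against vehicle, where it fell (-0.22, adjusted p = 0.0487). Both counts of 1 in 7 are near the shares of all tested genes called, 13.7% between the alanine groups and 11% under L-ala.

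Cxcl10, a chemokine gene of the further list, was outside the rule for named genes and was chosen after its values were seen, because its high libraries were those of Irf1. It had 2.74, 8.58, 3.68, 4.11 and 3.45 FPKM in D-ala kidneys, 15.7, 60.1, 51.4, 33.7 and 38.7 FPKM in L-ala kidneys, and 1.49, 68.7, 2.88, 2.07 and 3.04 FPKM in vehicle kidneys. Vehicle replicate 2 held the highest value of all 15 libraries, and every other vehicle library lay below every L-ala library. Cxcl10 was lower in D-ala than in L-ala kidneys (-2.85, SE 0.79, adjusted p = 0.034) and was not called for L-ala against vehicle (2.62, SE 0.79, adjusted p = 0.0513).

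**Figure D4:**
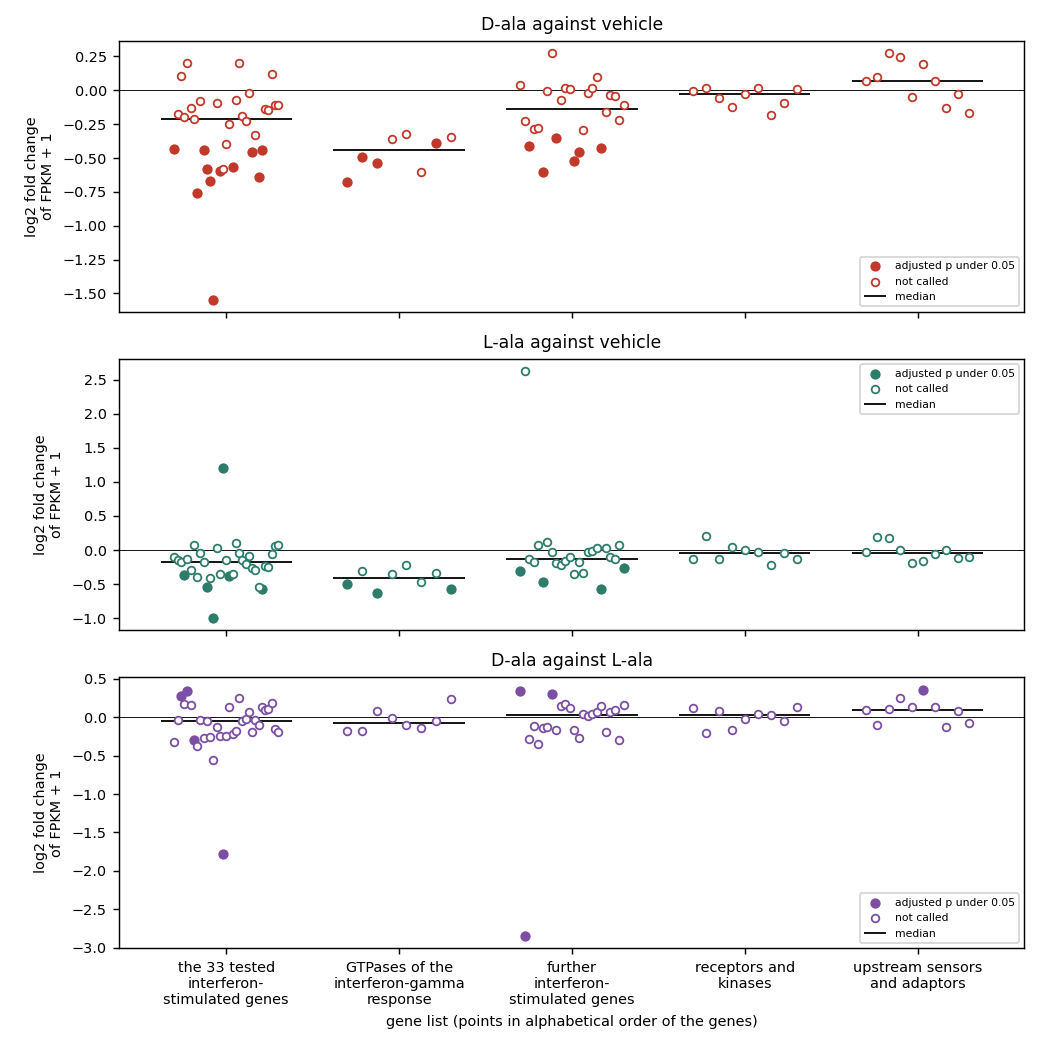
Log2 fold change of FPKM + 1 (vertical axes) of each tested gene in 5 lists (horizontal axis, genes in alphabetical order within a list) for 3 comparisons. Filled points have an adjusted p under 0.05 and lines are medians. In the D-ala against vehicle panel the 8 GTPases all lie below 0 around a median of -0.44, and the 9 receptors and kinases lie around -0.03.

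Markers of several cell types also changed against vehicle, some lower and some higher. Over all tested genes, 4.92% were called lower and 6.53% higher under D-ala. Under L-ala, 4.53% were called lower and 6.48% higher. Of 10 macrophage and dendritic cell markers, 6 were tested and none of the 10 was at 0 in every library. Under D-ala 3 of the 6 fell (Lyz2, C1qb and C1qc), and under L-ala 1 fell (Lyz2). The sum of the 10 ran from 45.5 to 66.3 FPKM in D-ala kidneys, from 56.7 to 77.5 FPKM in L-ala kidneys and from 66.3 to 92.0 FPKM in vehicle kidneys, so that D-ala and vehicle met only at 66.3 FPKM. Lyz2, a macrophage lysozyme whose reads could be divided with its near copy Lyz1, averaged 7.29 ± 0.936 FPKM in D-ala kidneys, 10.96 ± 1.497 FPKM in L-ala kidneys and 14.6 ± 1.55 FPKM in vehicle kidneys (SD, n = 5 each). Of 8 endothelial markers, 2 fell under D-ala and 5 under L-ala, and their sum ran from 90.3 to 118.8 FPKM in D-ala kidneys, from 73.4 to 147.2 FPKM in L-ala kidneys and from 100.5 to 153.3 FPKM in vehicle kidneys. Of 7 proximal tubule markers 3 rose under D-ala and 3 under L-ala, with the sums given at the start. All 5 markers of fibroblasts and pericytes were below 0 under D-ala, with a median of -0.39, and 2 fell: Pdgfra (-0.63, adjusted p = 0.00748, with no overlap with vehicle) and Dcn (-0.66, adjusted p = 0.0379). Under L-ala 0 of the 5 were called. Their sum ran from 15.7 to 23.6 FPKM in D-ala kidneys, from 15.8 to 32.5 FPKM in L-ala kidneys and from 20.04 to 34.97 FPKM in vehicle kidneys. Of 6 markers of the later nephron, 1 rose and 1 fell under D-ala and 1 fell under L-ala, and of the markers of podocytes, smooth muscle and adipocytes 0 were called against vehicle in either group. The part of these cell types in the fall of the interferon-stimulated genes was not tested.

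**Figure D5:**
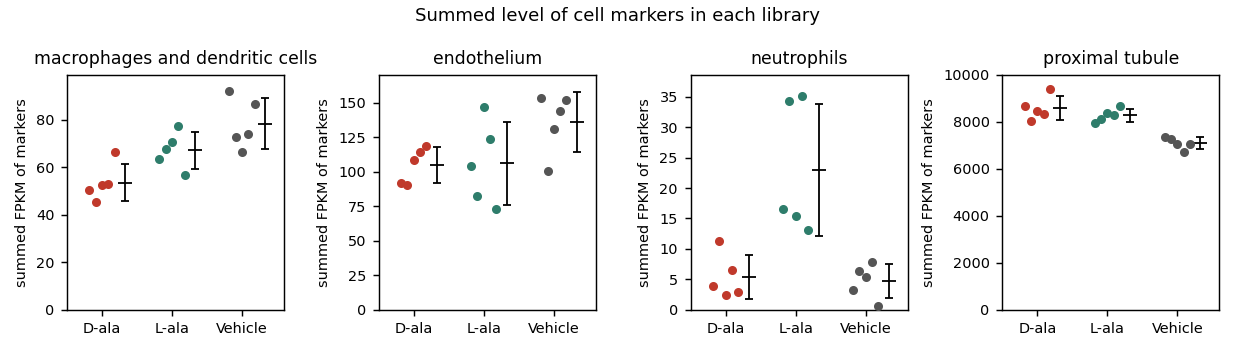
Summed FPKM of 4 marker lists in each library (vertical axes, starting at 0) by group, with the mean and SD of the 5 libraries beside the points. Macrophage and dendritic cell markers run from 45.5 to 66.3 FPKM in D-ala kidneys and from 66.3 to 92.0 FPKM in vehicle kidneys, and neutrophil markers reach 35.1 FPKM in L-ala kidneys.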

How the data were processed

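Kidney RNA of 15 samples was sequenced. Per the labels' protocols, libraries were stranded and selected for messenger RNA. The submitters' processing notes name Bowtie2 2.2.3, TopHat2 2.0.13, SAMtools 0.1.19 and mm10, with no roles or order. Which program and annotation gave the values of genes, and whether strand was used, is not given in the sources used here. The deposited table has 3 columns per library, of which FPKM, so named per the file headers, was tested. A second column holds log2 values per the file headers, within 0.0012 of gene-centred log2 FPKM over 10664 genes, and was not used. The last, deposited as a count, was treated as a score. FPKM were multiplied by each gene's ratio of summed deposited count to summed FPKM, and a factor per library was searched for. After division by that factor, 82.66% of the low values so formed lay within 0.1 of a whole number. The deposited count served only to recover depth, so no count model was fitted. All value columns were matched to a sample by name.

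Genes at 1 FPKM or more in at least 5 libraries were kept, 11781 in all, and 11503 were not. With limma 3.58.1 in R 4.3.3, 1 mean per group was fitted to log2(FPKM + 1) of all 15 libraries, with trended and robust empirical Bayes variances. Every adjusted p comes from limma, with Benjamini-Hochberg adjustment over all tested genes within a comparison. The procedure was tested on simulated data. FPKM carry no counting interval, and errors are SDs or SEs over libraries. The 40 genes, the lists, the tests and the alternatives were chosen with earlier results of these data known. Values in every library are given for the 10 genes with the smallest p in any comparison and for Irf7, Irf9, Stat2, Irf1, Isg15, Ifit1 and Ifitm3. From each pathway list up to 3 called genes by smallest p are named, and always Ifnar1, Ifnar2, Ifngr1, Ifnb1 and Ifng; a gene that the rule also names is not reported here. Gene coordinates are those of GENCODE on GRCm38, the assembly behind mm10.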

Additional observations from a re-analysis of the deposited data

Results flagged for a closer look

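In 4 of 99 groups of 5 libraries, 1 library lay far from the other 4 of its group, with a gap to the nearest that took up more of the group's range than Dixon's critical value of 0.71. Chance alone marks about 1 in 20 such groups. Irf1 in vehicle replicate 2 was at 23.3 FPKM, where the other vehicle libraries ran from 7.45 to 9.54 FPKM. Irf9 in vehicle replicate 4 was at 5.82 FPKM, where the others ran from 6.53 to 6.72 FPKM. Eif2ak2 in L-ala replicate 3 was at 1.92 FPKM, where the others ran from 2.68 to 2.96 FPKM. Ifi44 in vehicle replicate 2 was at 1.84 FPKM, where the others ran from 3.39 to 3.97 FPKM.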

How the results depend on the processing

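Of 21 called results of single genes, 11 stayed called under all 24 alternatives: Ifi44, Ifit1, Ifit2, Ifitm1, Isg15 and Rtp4 for D-ala against vehicle, Ifit2 and Rtp4 for L-ala against vehicle, and Ddx58, Eif2ak2 and Irf1 for D-ala against L-ala. No called result changed sign. For D-ala against vehicle the interferon-stimulated genes called numbered 11, and between 6 and 12 when 1 library was left out, always all lower. They numbered 6 without the 3 libraries of lowest depth (vehicle replicate 1, L-ala replicates 4 and 5), a setting chosen after seeing the data, as was removal of the trend with GC content. For L-ala against vehicle they numbered 6, between 3 and 8 with 1 library left out, 3 after quantile normalization and 3 without the 3 libraries of lowest depth. For D-ala against L-ala they numbered 4, between 3 and 5 in each alternative. Over all genes, 1349 were called for D-ala against vehicle, between 812 (without vehicle replicate 4) and 1592 with 1 library left out. Higher calls were 769 of them, and 740 of 1576 after quantile normalization. For L-ala against vehicle 1297 were called, 575 after quantile normalization, 603 with only the 2 groups in the model, and between 321 (without vehicle replicate 4) and 2580 (without L-ala replicate 5) with 1 library left out. For D-ala against L-ala 1611 were called, 975 with only the 2 groups, and between 770 (without L-ala replicate 4) and 2761 (without L-ala replicate 5) with 1 library left out. The causes were not tested. The 13 genes that were neither named nor called under any setting had 39 estimates, of which 12 changed sign under some alternative, none beyond 0.116 on the log2 scale.

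No paired analysis was possible because the replicate numbers follow sample order and pair nothing. Of the 39 genes, 6 were below the filter on low values. The part of depth in this was not tested.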

Other observations

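Tlr7, the receptor of single-stranded RNA that plasmacytoid dendritic cells and macrophages carry, was below the filter and was not tested. It ran from 0.111 to 0.261 FPKM in D-ala kidneys, from 0.157 to 0.369 FPKM in L-ala kidneys and from 0.274 to 0.432 FPKM in vehicle kidneys. The D-ala libraries lay below the vehicle libraries, where 4.76% of all tested genes did so. Tlr7 was chosen after its values were seen. Tlr9, a receptor of DNA, did not pass 0.108 FPKM in any library. Ifnk, an interferon of skin, was at 0.394 FPKM in vehicle replicate 1 and listed at 0 in the other 14 libraries.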
